A study of Mus musculus with 44 samples.

Results

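Scp2 and Scp2-ps2, the sterol carrier protein 2 gene and a pseudogene copied from it, were followed through the liver and skeletal muscle of the same mice, to ask whether the pseudogene follows its parent. They are 2 of the 38202 genes in the deposited tables and were found there by their Ensembl identifiers, ENSMUSG00000028603 and ENSMUSG00000058492. The pair was picked with results of these libraries known, and the values taken to have picked it are those of knockout against wild-type liver. Those values are therefore given as a description, without a test. The study asked what the loss of Slc16a13, a lactate transporter gene, does in mice on a high-fat diet (HFD). Poly(A) RNA of both tissues was sequenced from 11 WT and 11 KO mice, which gave 44 libraries, with 1 liver and 1 skeletal muscle library a mouse. All mice were males on a C57BL/6N background, fed HFD for 15 weeks and killed at 20 weeks of age after an overnight fast. WT mice were littermates of the KO mice, which carry a constitutive CRISPR/Cas9 deletion in Slc16a13, and no mice on a normal diet are part of these libraries.

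SCP2 is made from 1 gene in a long form, SCPx, whose thiolase part cleaves branched-chain acyl-CoA in peroxisomes, and in a short form, SCP2, a small carrier that binds sterols, fatty acids and acyl-CoA. The thiolase step serves the shortening of the bile acid side chain and the breakdown of phytanic acid, and the liver is known for high amounts of both forms. A pseudogene is a gene copy that is not taken to make the parent's protein, and its RNA, where it is made, can be hard to tell from that of the parent.

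In GENCODE M21 (GRCm38), Scp2 is a protein-coding gene at chr4:108043839-108144998 on the minus strand. Scp2-ps2 lies at chr9:123306600-123317998, also on the minus strand, and its annotated type is transcribed unprocessed pseudogene, not processed pseudogene, the type of a copy made from spliced RNA. The stretch compared here nevertheless ran over 5 of the 16 exons of the 2640-base Scp2 transcript and over 4 exon junctions without the introns between them. Of the 478 bases of the single-exon Scp2-ps2 transcript compared, 475 aligned to bases 1251 to 1725 of that Scp2 transcript, with 1 difference and 99.789% identity. This was A1489C, counted from 1 at the 5′ end of the Scp2 transcript, where the first letter is the base of Scp2. It falls on position 3 of a codon. The 169 bases around it are shown because they hold every 85-base read that can tell these aligned stretches apart. They are given 5′ to 3′ from the GENCODE transcripts, with the differing base in capitals. The Scp2-ps2 bases lie at chr9:123307664-123307832 without a junction, and those of Scp2 come from exons within chr4:108047650-108063904 with 2 junctions inside.
Scp2: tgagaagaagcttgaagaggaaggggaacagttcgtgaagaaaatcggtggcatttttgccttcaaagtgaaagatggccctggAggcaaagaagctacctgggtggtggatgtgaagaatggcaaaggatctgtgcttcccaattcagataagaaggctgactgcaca
Scp2-ps2: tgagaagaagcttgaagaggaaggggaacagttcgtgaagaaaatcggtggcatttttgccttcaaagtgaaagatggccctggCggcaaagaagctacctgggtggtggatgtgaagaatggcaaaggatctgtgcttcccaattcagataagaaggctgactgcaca

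The deposited values count uniquely mapped reads only, so the identity of the copies bears on every value. Count and RPKM together imply a length of 432 bases for Scp2-ps2, which equals the length of an open reading frame in its transcripts. Of the 348 possible 85-base read starts in that frame, 263 also occur in Scp2 and 85 do not. Of the 85-base windows of the 2640-base Scp2 transcript, 34.937% also occur in at least 1 Scp2-ps2 transcript of the annotation. Seen from the pseudogene, 77.665% of the windows of its 478-base transcript occur in Scp2, 51.429% of those of its 609-base transcript and 67.963% of those of its 1370-base transcript. A single base decides between the genes for a read in the 475 aligned bases, and how reads found in both were handled is not given in the sources used here. Gm47162, an antisense gene over Scp2-ps2, shares windows with both members, and Podn overlaps Scp2 on the same strand. The kit marked strand, but whether counting used it is not stated, so reads of Gm47162 and Scp2-ps2 cannot be told apart.

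Total counts ranged from 20150712 to 35218243 a library. Slc16a13 had 99 to 302 reads in WT liver and 0 to 8 in KO liver. In muscle it had 4 to 22 reads in WT libraries and 11 to 40 in the libraries labelled KO, so the loss seen in liver was not seen there. The muscle log2 fold change at these low counts was 0.64 (SE 0.22, adjusted p = 0.49, edgeR). The deletion, as the study describes it, takes out the proximal promoter region and the first exons of the gene. Why no loss was seen in muscle was not tested, and these are called the libraries labelled KO below. The 10 hepatocyte markers summed to 103369 to 145386 CPM (counts scaled to a common library size) over all livers and to 4.30 to 60.3 CPM over all muscles, and the 10 myofibre markers to at least 185968 CPM in every muscle library. Slopes on log2 gene length were taken of log2 CPM relative to each gene's mean over all livers. In 5 KO livers this slope was below that of every WT liver. These slopes went down to -0.53, against 0.04 to 0.10 in WT livers, although one of them, 0.037, was just below the lowest WT value of 0.040. They are called the 5 low-slope livers.

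Scp2 was among the most abundant transcripts of the liver. WT livers held 57169 to 112338 Scp2 reads (median 68251), KO livers 53633 to 84891 (median 63746), WT muscles 1215 to 2197 (median 1514) and the muscle libraries labelled KO 1260 to 2407 (median 1505). On the RPKM scale, which divides reads by gene length and depth, its mean was 1887 ± 163 (SD, n = 11) in WT liver, rank 36 of 38202 genes, and 45.3 ± 2.89 (SD, n = 11) in WT muscle, rank 1199. No muscle library came near the level of any liver library, while WT and KO overlapped in both tissues.

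Scp2-ps2 was counted at a small fraction of its parent in every library. It had 104 to 200 reads in WT livers (median 126), 141 to 223 in KO livers (median 178), 3 to 13 in WT muscles (median 6) and 1 to 13 in the muscle libraries labelled KO (median 8). Its mean RPKM was 12.2 ± 1.41 (SD, n = 11) in WT liver, rank 4122 of 38202, and 0.532 ± 0.247 (SD, n = 11) in WT muscle, rank 11725. The order of levels was KO liver, WT liver and then both muscle groups, whose values overlapped. The muscle values lie near the count of 3 that a library with no read still allows.

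**Figure D1:**
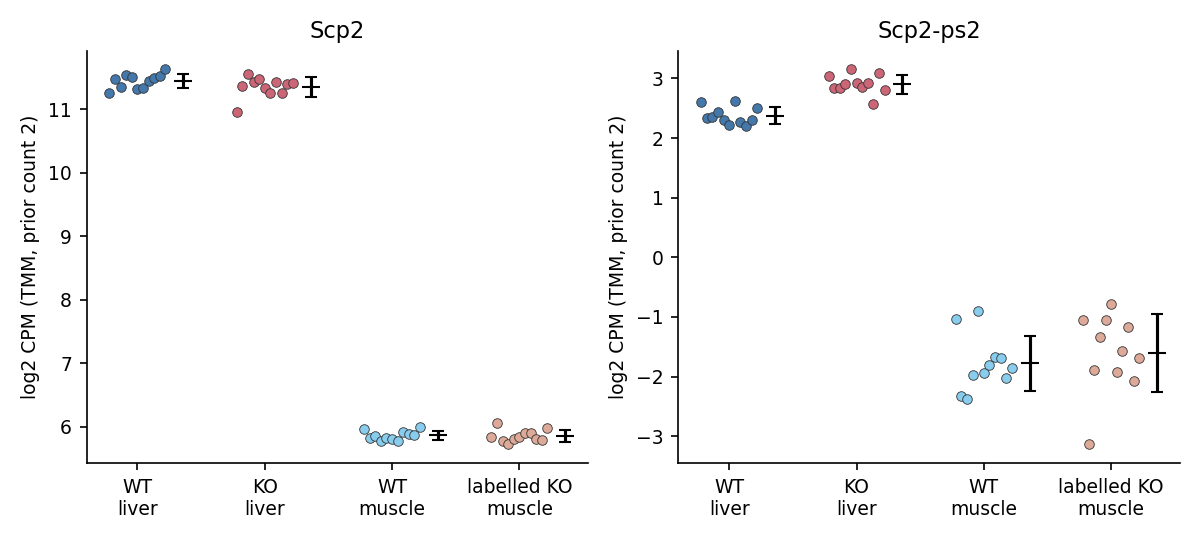
Level of Scp2 (left) and Scp2-ps2 (right) in log2 CPM, with TMM scaling within each tissue and a prior count of 2, for each of the 11 libraries a group (points), with mean and SD (bars to the right). Both genes sit far lower in muscle, Scp2 overlaps between genotypes in both tissues, and 10 of 11 KO livers lie above the highest WT liver for Scp2-ps2.

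Both members were lower in muscle than in liver. In WT mice, Scp2 was lower in muscle by a log2 fold change of -5.64 (SE 0.06, adjusted p = 9.9e-30, edgeR quasi-likelihood test with Benjamini-Hochberg adjustment), and Scp2-ps2 had -4.52 (SE 0.15). In KO mice the log2 fold changes were -5.58 (SE 0.09, adjusted p = 1.1e-25, edgeR) for Scp2 and -4.80 (SE 0.20) for Scp2-ps2, the muscle side being the libraries labelled KO. Of all genes tested, 91% were called in WT mice and 86.7% in KO mice, so a call between these tissues does not set the members apart. Scp2-ps2 passed the filter on low counts through its liver counts alone, so no p from those fits is given for it. In fits of all genes without that filter its log2 fold change was -4.54 (SE 0.15, adjusted p = 1e-20, edgeR) in WT and -4.82 (SE 0.20, adjusted p = 1.8e-17, edgeR) in KO mice. The liver side of all these tissue fits holds the values taken to have picked the pair. Their p for the members are therefore not independent of that choice. In bulk tissue, fewer cells of a type and less RNA per cell cannot be told apart.

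The hepatocyte markers in muscle libraries were set beside the members. In WT mice the median marker sum in muscle was 0.0067% of that in liver, while Scp2 stood at 1.96% and Scp2-ps2 at 4.01% of their liver CPM. In KO mice the values were 0.0082%, 2.16% and 3.59%. The muscle share of both members was above that of the hepatocyte markers, whose sum varied between muscle libraries. Whether liver RNA carried over adds to the muscle reads of the members was not tested.

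The reads of Scp2-ps2 made up a larger percent of the reads of Scp2 in muscle than in liver. The percent was 0.156 to 0.247 in WT livers (median 0.178), 0.236 to 0.410 in KO livers (median 0.272), 0.205 to 0.818 in WT muscles (median 0.330) and 0.0581 to 0.879 in the muscle libraries labelled KO (median 0.440). Summed over the libraries it was 0.185% in WT liver (95% exact Clopper-Pearson interval 0.175 to 0.194), 0.285% in KO liver (0.273 to 0.297), 0.394% in WT muscle (0.305 to 0.50) and 0.474% in muscle labelled KO (0.377 to 0.588). These intervals cover counting error only. Per length the medians were higher, with an RPKM ratio of 0.604% in WT liver, 0.946% in KO liver, 1.0% in WT muscle and 1.37% in muscle labelled KO. The length that the tables imply for Scp2 was not the same in both tissues, with a median of 1496 bases in WT liver and 1300.0 in WT muscle, so its RPKM is not over a fixed length. For Scp2-ps2, 85 of the 348 read starts in its 432-base frame do not occur in Scp2. With unique reads counted, its RPKM is thus not per base that could be counted.

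Within a mouse, the log2 ratio of Scp2-ps2 to Scp2 counts was 1.11 ± 0.55 (SD, n = 11) higher in muscle than in liver in WT mice, with the same direction in 11 of 11 mice (exact two-sided sign-flip permutation p = 0.00098, the smallest this design gives). In KO mice the difference was 0.67 ± 0.91 (SD, n = 11) and positive in 10 of 11 mice (exact permutation p = 0.042), with muscle libraries labelled KO. The KO value lost its call on the RPKM scale, where the difference was 0.36 (exact permutation p = 0.29), and with a pseudocount of 0.1 in place of 0.5, where it was 0.56 (exact permutation p = 0.10). The WT difference on the RPKM scale was 0.78 (exact permutation p = 0.0020). The KO mouse with the opposite sign had 1 Scp2-ps2 read in muscle. The liver side of both differences holds the values that chose the pair, low in WT and high in KO mice. The sizes of 1.11 and 0.67, their directions and their permutation p are therefore not independent of that choice. Whether WT and KO mice differ in this tissue difference was not tested.

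**Figure D2:**
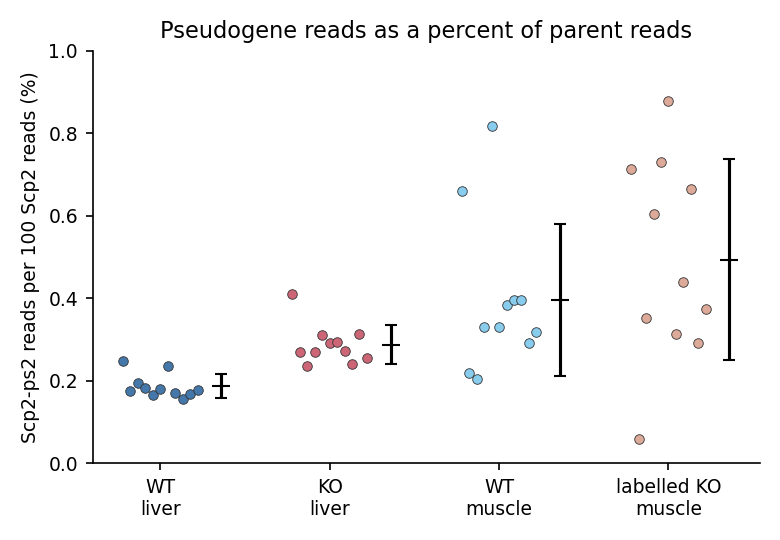
Scp2-ps2 reads as a percent of Scp2 reads in each library (points; mean and SD to the right; 11 libraries a group, linear axis from 0). The medians run from 0.178% in WT liver over 0.272% in KO liver to 0.330% and 0.440% in the muscle groups, where the points are widely scattered.

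In WT muscle the scatter of the ratio was no larger than counting error. The SD of the log2 ratio was 0.55 in WT muscle and 0.94 in muscle labelled KO, beside counting SDs of 0.59 and 0.51 (the Poisson error of both counts, median over libraries). In liver the SDs were 0.21 (WT) and 0.22 (KO) and the counting SDs 0.13 and 0.11. The spread exceeded counting error in both liver groups and in the muscle libraries labelled KO, where 1 library had a single Scp2-ps2 read.

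In liver, Scp2-ps2 stood higher in KO mice and Scp2 did not. Scp2-ps2 measured 4.5 to 6.05 CPM in WT livers (median 4.98) and 5.85 to 8.80 CPM in KO livers (median 7.46). Of 11 KO livers, 10 lay above the highest WT liver, and 9 of 11 WT livers lay below the lowest KO liver. The share of all genes with such a separation is not given here. By other measures, edgeR called 0.0231% of 13005 genes in this comparison, and 12.9% had an unadjusted p under 0.05. The log2 fold change, KO over WT, was 0.53 (SE 0.08). It was 0.45 without the 5 low-slope livers and 0.33 with gene length removed from all libraries. In those 5 livers Scp2-ps2 was at 6.94 to 8.80 CPM, and in the other 6 KO livers at 5.85 to 7.47 CPM.

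Scp2 measured 2436 to 3151 CPM in WT livers (median 2837) and 1990 to 2991 CPM in KO livers (median 2686). The range of the WT livers held 9 of the 11 KO livers, and the other 2 were lower, with a log2 fold change of -0.09 (SE 0.06). It was -0.15 (SE 0.07) with scaling by library size alone and -0.16 (SE 0.09) with gene length removed. The log2 ratio of pseudogene to parent was accordingly 0.62 higher in KO livers, and 9 of 11 KO livers lay above the highest WT ratio. No share over other gene pairs stands beside this count. Without the 5 low-slope livers the difference was 0.51.

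In muscle neither member differed between genotypes beyond its spread, in a comparison in which 0.00754% of 13266 genes were called. Scp2 was at 54.9 to 63.6 CPM in WT muscles (median 57.9) and at 52.8 to 66.6 CPM in the libraries labelled KO (median 57.3). Its log2 fold change was -0.01 (SE 0.04, adjusted p = 0.96, edgeR), and its sign turned with scaling by library size alone, to 0.01. Scp2-ps2 was at 0.119 to 0.464 CPM in WT muscles and 0.0387 to 0.504 CPM in the libraries labelled KO, with 9 of 11 of the latter inside the WT range. It did not pass the filter on low counts in muscle. Without that filter its log2 fold change was 0.27 (SE 0.32, adjusted p = 0.75, edgeR), and the log2 ratio differed by 0.18 (permutation p = 0.604). The liver value of 0.53 lies within 1 SE of this estimate.

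Across mice within a group, Scp2-ps2 did not track Scp2 in a way that passed adjustment over the 10 relations computed. Counting error was close in size to the spread of Scp2-ps2. The counting SD of the log2 ratio was 0.13 in WT and 0.11 in KO liver, and the SD of Scp2-ps2 log2 CPM 0.15 and 0.16. In muscle these were 0.59 (WT) and 0.51 (labelled KO), beside 0.46 and 0.66. A pseudogene that followed its parent could then also give a low r, so a low r cannot decide the question. In WT liver Pearson's r of log2 CPM was -0.25 (permutation p = 0.445, adjusted p = 0.83) and Spearman's rho -0.06 (permutation p = 0.859, adjusted p = 0.86). In KO liver r was 0.01 (permutation p = 0.963, adjusted p = 0.96) and rho 0.14 (permutation p = 0.693, adjusted p = 0.86). The KO liver value turned on few libraries and on gene length. Without the 2 libraries farthest from the median of Scp2, r was 0.70 there (permutation p = 0.032, unadjusted), without the 5 low-slope livers 0.55 (n = 6, permutation adjusted p = 0.65), and with gene length removed 0.90 (permutation adjusted p = 0.0042). Removing gene length lowered both members together in some low-slope livers. In mouse 532 Scp2 went from 10.96 to 10.51 log2 CPM and Scp2-ps2 from 3.04 to 2.09, and in mouse 602 from 11.39 to 11.11 and from 3.09 to 2.37. The r of 0.90 and its p therefore cannot separate tracking from the removal itself. In WT liver r was -0.26 without the 2 farthest libraries and -0.32 with gene length removed.

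In WT muscle r was 0.28 (permutation p = 0.407, adjusted p = 0.83) and rho 0.24 (permutation p = 0.486, adjusted p = 0.86). In muscle labelled KO r was -0.61 (permutation p = 0.0498, adjusted p = 0.50) and rho -0.24 (permutation p = 0.485, adjusted p = 0.86). Without the 2 libraries farthest in Scp2, r was 0.05 in WT muscle and -0.05 in muscle labelled KO, so the relation there rests on those libraries. Between liver and muscle of the same mouse, r over the 6 remaining relations lay from -0.10 to 0.25, and none passed adjustment (lowest permutation adjusted p = 0.83). Their rho lay from -0.38 to 0.34 (permutation adjusted p = 0.86), and r without the 2 farthest libraries from -0.58 to 0.32.

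**Figure D3:**
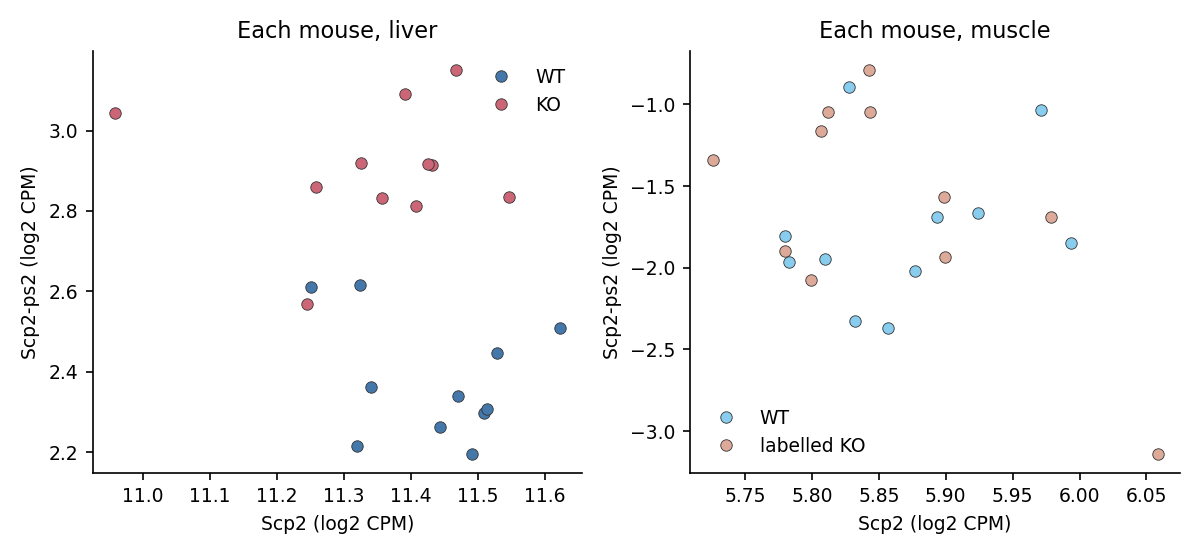
Scp2-ps2 against Scp2 in each mouse, both in log2 CPM, for liver (left) and muscle (right), with WT and KO in separate colours and 1 point a library. Of 11 KO livers, 10 lie above every WT liver, and within the groups r runs from -0.61 to 0.28.

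Over the 22 liver libraries, with each genotype centred on its own mean, r between the members was -0.09, and Scp2-ps2 took rank 7563 of 13004 genes by likeness to Scp2. The genes most like Scp2 in liver were Arl1 (r = 0.82), Ankrd46 (0.79), Ces4a (0.77), Slc6a9 (0.76) and Klf11 (0.73). Those most like Scp2-ps2 were Bcdin3d (r = 0.76), Nutf2 (0.73), Sult1e1 (0.72), Polr2h (0.72) and Prss36 (0.71). The lists shared no gene. Over the 22 muscle libraries, Cd59a (r = 0.91), Hmgcs1 (0.88), Wnt5a (0.87), Xiap (0.87) and Ppp2r5a (0.85) were most like Scp2. These values describe the libraries, which share depth and gene-length dependence, and carry no test. Counting error in Scp2-ps2 also limits its likeness to any gene, Scp2 included.

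The genes beside each member were measured between genotypes in liver as well. Next to Scp2-ps2 on chromosome 9, Lars2, the mitochondrial leucyl-tRNA synthetase, had a log2 fold change of 0.06 (SE 0.19, adjusted p = 0.86, edgeR). Cdcp1, a transmembrane protein gene on the far side of Tmem158, had -0.18 (SE 0.15, adjusted p = 0.50, edgeR). Next to Scp2, Echdc2, an enoyl-CoA hydratase domain protein, had 0.12 (SE 0.09, adjusted p = 0.47, edgeR). Zyg11a, on the far side of Echdc2, had -0.36 (SE 0.18, adjusted p = 0.38, edgeR), and Podn, an extracellular matrix protein gene, -0.05 (SE 0.17, adjusted p = 0.88, edgeR). The log2 fold changes of these neighbours lay from -0.36 to 0.12. None was called, in a comparison in which 0.0231% of all genes were. The neighbours Tmem158, Gm46137, Gm23354 and Mir6397 had no tested value.

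Among 21 pseudogenes whose symbols name a parent, with both genes tested in liver, Scp2-ps2 had the largest positive difference between its own and its parent's log2 fold change, 0.62. Marcksl1-ps4 had a larger difference in the other direction, -0.72. This is a description, since the member was chosen from that contrast. Its own log2 fold change took rank 5, and the other 20 had a median of 0.30, with a range of -0.43 to 0.68. The next largest positive differences were those of Hspd1-ps3 (0.58), Got2-ps1 (0.48) and Ftl1-ps1 (0.38). In WT liver Scp2-ps2 had 0.185% of its parent's CPM, rank 4 of 21 from the lowest, where the others had a median of 1.54%.

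Most genes of the peroxisomal pathway were lower in muscle, as was Scp2. Of 3 other SCP2 domain genes tested, 2 were lower and 1 higher in WT muscle than WT liver. Hsd17b4, the multifunctional enzyme that precedes the thiolase step, fell from a mean RPKM of 291 to 26.7 (log2 fold change -3.52, SE 0.06) and Hsdl2, a dehydrogenase-like protein, from 73.3 to 26.7 (log2 fold change -1.36, SE 0.09), while Stoml1, a stomatin-like membrane protein, rose from 2.47 to 4.75 (log2 fold change 0.92, SE 0.07). Peroxisomal beta-oxidation genes, Hsd17b4 among them, were lower in 25 of 29, higher in 3 and not called in 1, with a median log2 fold change of -3.76 beside 0.00 over all genes, of which 45.5% were called lower and 45.5% higher. Phyh, the phytanoyl-CoA hydroxylase, fell by 3.97 on the log2 scale. Slc27a2, a very long-chain acyl-CoA synthetase, fell from a mean RPKM of 1189 to 0.0328.

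Of 16 peroxins tested, which build the peroxisome and import its proteins, 15 were lower and 1 higher in WT muscle, with a median of -1.80. Pex5, the import receptor that carries SCP2 into the peroxisome, had a log2 fold change of -2.49 (SE 0.04) and Pex19 of -0.78 (SE 0.03). Of 22 lipid carriers tested, 13 were lower and 8 higher, beside 45.5% of all genes in each direction. Their median was -1.46 and their range -15.8 to 12.3. Fabp1, the liver fatty acid binding protein, fell from a mean RPKM of 5198 to 0.0915, and Dbi, an acyl-CoA binding protein, from 851 to 150.3. Both, like Phyh, Slc27a2, Pex5 and Pex19 above, are named for their high RPKM in WT liver, a choice that favours genes lower in muscle. Fabp4, among the 8 that were higher, rose from a mean RPKM of 16.2 to 436. The fall of Scp2 by 5.64 was larger than the median of each of these lists.

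**Figure D4:**
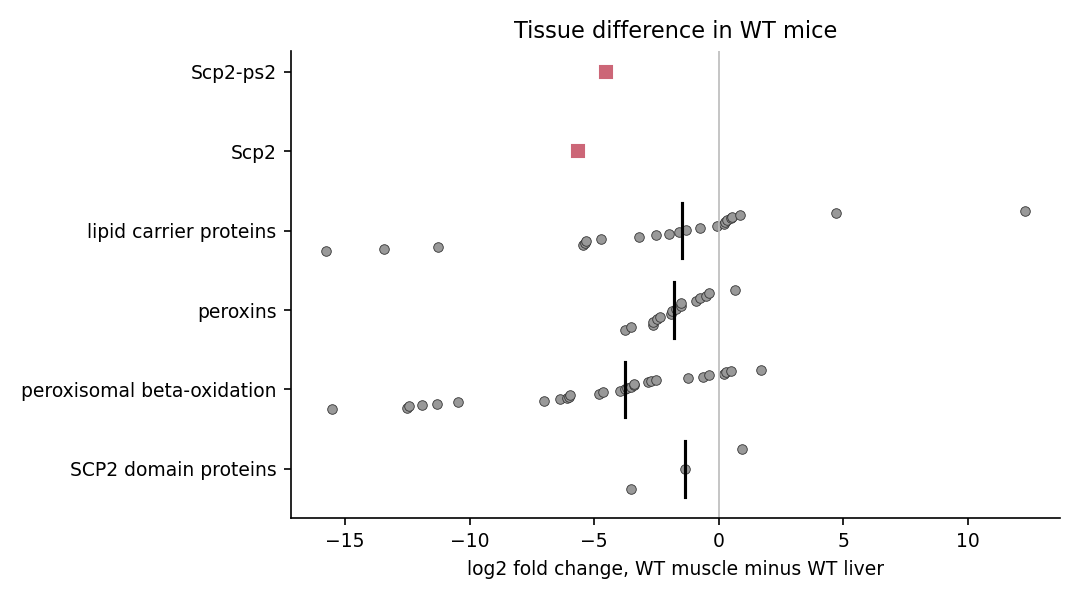
Log2 fold change, WT muscle minus WT liver, of each tested gene of 4 lists (grey points, spread vertically in rank order; black line, median) and of Scp2 and Scp2-ps2 (red squares, SE within the symbol). The members, at -5.64 and -4.52, lie below the list medians of -3.76, -1.80, -1.46 and -1.36.

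Between genotypes, no gene of these lists was called by edgeR or by DESeq2 in liver or in muscle. In liver an unadjusted p under 0.05 was met by 5 of 29 peroxisomal beta-oxidation genes, 0 of 16 peroxins, 1 of 21 lipid carriers and 0 of 3 SCP2 domain genes, beside 12.9% of all genes. In muscle it was met by 0 of 23, 2 of 16, 1 of 19 and 0 of 3, beside 8.64% of all genes. The list medians in liver lay between -0.01 and 0.08, and Hsd17b4 had a log2 fold change of -0.01 (SE 0.05, adjusted p = 0.87, edgeR).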

How the data were processed

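Poly(A) RNA was sequenced as 85-base single-end reads with a strand-marking kit. The authors deposited raw counts of uniquely mapped reads and RPKM values from unique reads, both as tables of all genes by library. The aligner, counter, annotation and genome build are not given in the sources used here, and the authors used limma to obtain log2 CPM.

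Members and gene lists were chosen with earlier results of these data known. Counts were tested with edgeR 4.0.16 (R 4.3.3; TMM, filterByExpr, quasi-likelihood F-test, Benjamini-Hochberg over all genes tested, threshold 0.05), separately for the tissues within each genotype and for the genotypes within each tissue. limma 3.58.1 on log2 RPKM and DESeq2 1.42.0 were alternatives. Ratios used a pseudocount of 0.5 and were tested over mice by exact sign flips or 100000 permutations. Correlations used log2 CPM (prior count 2) and 100000 permutations. Gene length was removed with a loess fit (span 0.3). Ensembl identifiers were matched to symbols for 36340 of 38202 genes. Annotation and transcripts were from GENCODE M21, and neighbouring genes from RefSeq (GRCm38.p6). As gene models may differ from those the authors counted, coordinates are those of GENCODE.

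Tissues were paired by the animal number in the labels. The mean correlation of deviations from the group means was 0.0998 (WT) and 0.105 (KO) for the same mouse, and -0.01 for other mice. Counts were simulated with 200 genes changed by 1 on the log2 scale. The fits recovered 92% (WT tissues, 13827 genes), 86.5% (KO tissues, 13885), 91.5% (genotypes in muscle, 13184) and 86.5% (genotypes in liver, 12911). Apart from those genes the simulated libraries shared a common mean profile and had no gene-length shift. The recovery therefore does not carry over to the real tissue fits, where most genes were called, or to the low-slope livers. Named genes were the members, Slc16a13 as a check of the labels, up to 2 neighbours a side, the 5 genes most like each member and up to 5 genes a list with the highest RPKM in WT liver. Leaving out each library, scaling, filters, pseudocounts and gene length were the alternatives.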

Additional observations from a re-analysis of the deposited data

How the results depend on the processing

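Of 128 alternatives outside those that leave out 1 library, 108 were counted as the same as the main run. For results with a test, this meant the same direction and call. For the liver values between genotypes it meant a shift smaller than the SD within groups, and for numbers of genes called a similar number. The Scp2 log2 fold change between genotypes in muscle turned to 0.011 under library-size scaling and to 0.0036 (pseudocount 0.1) and 0.0037 (pseudocount 1) with limma on log2 RPKM. Leaving out 1 library gave -0.027 to 0.0051 in muscle, with the sign turned in 3 of 22 runs (0.0022, 0.0051 and 0.0048 without WT mice 516 and 624 and mouse 570 labelled KO). The same runs gave -0.11 to -0.04 for Scp2 and 0.51 to 0.56 for Scp2-ps2 in liver. Between tissues they gave -5.67 to -5.63 and -4.69 to -4.46 in WT, and -5.61 to -5.55 and -4.92 to -4.68 in KO mice. With gene length removed, Scp2-ps2 in liver moved to 0.33 and its correlation with Scp2 in KO liver to 0.90 (permutation adjusted p = 0.0042). That correlation holds the shift that the removal gave both members in some low-slope livers. The cause of these changes was not tested.

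Genes called between genotypes in muscle were 1 with edgeR and a filter, 2 with DESeq2, and 0 without a filter, with a minimum of 10 counts or with limma on RPKM at either pseudocount. In liver they were 3, and 7 with DESeq2, 1 with a minimum of 10 counts and 1 without the 5 low-slope livers. The KO tissue difference of the log2 ratio was 0.56 with a pseudocount of 0.1 and 0.36 on RPKM. The correlation between liver and muscle in KO mice turned for Scp2 to 0.062 (library-size scaling) and 0.073 (gene length removed), for Scp2-ps2 to -0.23 (gene length removed) and -0.26 (without the 5 livers), and for the log2 ratio to -0.24 (without the 5 livers).

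With mouse as a block in paired fits, the tissue log2 fold changes were -5.64 and -4.53 in WT and -5.57 and -4.83 in KO mice, for Scp2 and Scp2-ps2, and no call changed. Without the pairing, the ratio differences of 1.11 and 0.67 kept their calls (permutation p = 3e-05 and 0.031), with the same dependence on the choice of the pair. Scp2-ps2 gave no tissue value with a minimum of 10 counts in every library. Its muscle counts of 1 to 13 limit every muscle value of the pseudogene and of the ratio.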

Other observations

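Scp2d1, a separate gene with an SCP2 domain, was at 0 in all libraries but 1. That muscle library, labelled KO and singled out after its value was seen, held 92 reads of it.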
